A study of Drosophila melanogaster with 13 samples.

Results

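The comparison described here is that of male with female Drosophila melanogaster raised as larvae on the high protein diet, measured as messenger RNA in adult heads. Its members are the 6 libraries of the series labelled with that diet, 3 from males and 3 from females, of 13 libraries in all, and each male library has a female partner of the same strain. Males on HPS are the SD2, SD3 and SD6 males, and females on HPS are the SD2, SD3 and SD6 females. HPS stands for a high ratio of protein to sugar, with a protein to carbohydrate ratio of 0.43, and the remaining 7 libraries come from males and females raised on LPS, with a ratio of 0.1. SD2, SD3 and SD6 are isofemale lines started from wild flies caught near San Diego, and the sample labels give no transgene, mutation or drug for any group. The extraction protocol assigns spike-in mixes to DMSO-treated and control flies, terms that no sample label uses; no result here rests on spike-ins. Both sexes of a strain and diet were reared together, 40 larvae to a vial in 10 vials at 25 °C, and every sample is a pool of 70 to 80 heads from flies 2 to 6 h after eclosion. A whole head holds brain, eyes, antennae, muscle, fat body, blood cells and cuticle, and at that age the adult cuticle is still maturing.

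In flies, sex is set in each cell by the number of X chromosomes, which switches the RNA-binding protein Sex-lethal on in females and off in males. Sex-lethal controls splicing of transformer and, through it, the sex-specific forms of doublesex and fruitless, which set the sexual fate of fat body, cuticle and neurons. It also stops males' dosage compensation from starting in females: the male complex, built on the protein MSL-2 and the noncoding RNAs roX1 and roX2, raises the output of the single X of males. The fat body, which also lies around the brain, makes yolk proteins in females and is a main source of antimicrobial peptides and circulating proteins in both sexes.

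Libraries held 10.2, 8.63 and 13.9 M reads assigned to genes in SD2, SD3 and SD6 males and 16.9, 7.84 and 15.5 M in the females. A count of 3 reads, used as the floor of detection, equals 0.178 to 0.382 counts per M reads in a library, before scaling, and covers counting error only. Levels are given as counts per M gene reads with scaled library sizes (CPM); they compare samples for 1 gene and are not corrected for transcript length, so levels of different genes are not compared. The male HPS SD2 library was sequenced in a later run than the other 5, and 10.4% of its reads fell outside genes, against 2.93% to 4.82% in the other HPS libraries. Spike-in reads were 0.558% of that library and 0.0536% to 0.133% of the others. Only the male HPS SD2 library of the 6 is from that run, so within HPS the run cannot be told apart from being an SD2 male. Counts are therefore also given without the SD2 pair, and with a run term. That term comes from a fit with LPS libraries, among them the male LPS SD2 RNA, which was sequenced in both runs. The male HPS SD2 library is in the same fit and also enters the estimate of the term.

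Of 9507 genes with enough reads to test, 222 differed between males and females on HPS, which is 2.34%, at an adjusted p below 0.05 (edgeR quasi-likelihood test with strain as a block, Benjamini-Hochberg adjustment). In males 39 genes were higher (0.410% of those tested), and 183 were higher in females (1.92%). At an unadjusted p below 0.05 there were 1672 genes. Over all tested genes 4839 differences were below 0 and 4668 above, with a median of -0.0043. Differences were mostly small: the median called gene was 1.91-fold higher in males or 1.59-fold higher in females, and a change of 4-fold or more was reached by 8 genes higher in males and 10 higher in females. In each of the 3 strains all 222 genes moved the same way. Male and female libraries did not overlap in 31 of the 39 and in 113 of the 183, against a background of 7.10% and 6.97% of all tested genes in each direction. The 222 were called on these same libraries, so the shared direction and the separation follow largely from that selection. The number of calls depended on the strain pairs: 59 genes passed without SD2, 909 without SD3 and 264 without SD6. Of the 59 found without SD2, 57 were among the 222. With sequencing run as a term over 11 libraries of both diets, 310 genes passed and 184 of them were among the 222, and all 222 kept their direction both there and without SD2. In the fit with the run term the 2 libraries of the male LPS SD2 RNA counted as separate samples. They are 1 RNA sample, which can make the p-values of that fit too small. There is 1 pool for each sex and strain, so the variation seen is that across 3 strains of pooled heads. The p-values and SE come from the edgeR fit, which draws each gene's variance towards that of other genes. They are therefore not the plain spread of the 3 pair differences, which can be wider. For w, the white gene, the pairs differed by 0.37, 1.14 and 0.47 on the log2 scale, beside an SE of 0.14.

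**Figure D1:**
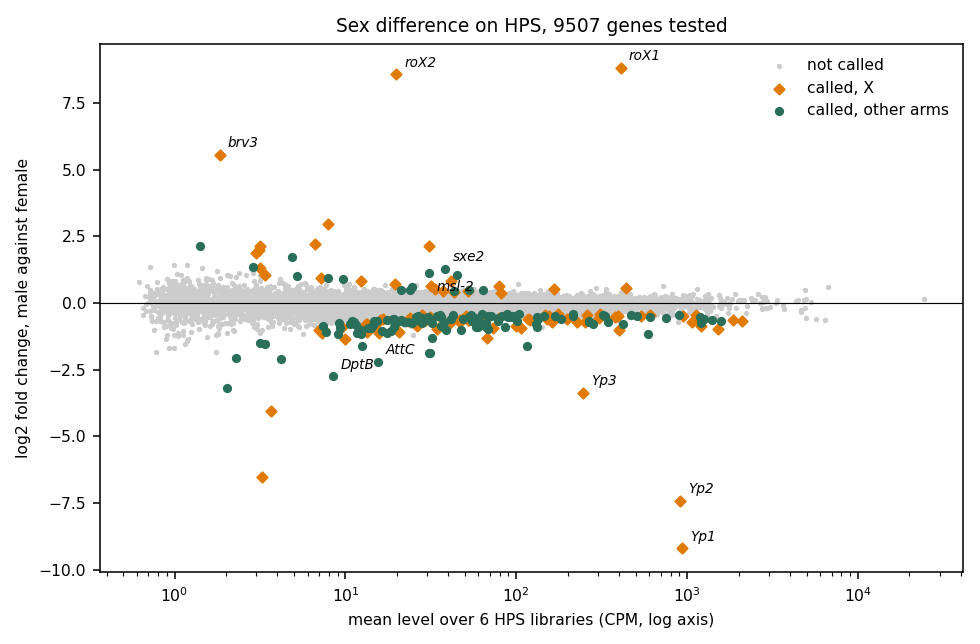
Log2 fold change of males against females on HPS (vertical axis) against the mean level over the 6 HPS libraries (CPM, log axis) for 9507 tested genes; orange diamonds are called genes on the X, green dots are called genes on other arms and grey dots did not pass. The roX genes and brv3 stand furthest up, Yp1, Yp2 and asRNA:CR45601 furthest down, and most called genes lie below 0, higher in females.

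The strongest male excess was in the RNA parts of the dosage compensation complex. roX1 had 971, 703 and 779.8 CPM in SD2, SD3 and SD6 males, against 1.32, 3.12 and 1.59 CPM in females. Its log2 fold change was 8.82 ± 0.25 (SE from the edgeR fit to 3 pairs, edgeR adjusted p = 1.23e-07), and no male library came near a female one. roX2 had 59.1, 26.7 and 33.0 CPM in males and 0.120, 0.130 and 0.0664 CPM in females. In reads that is 223 to 624 in each male library and 1 or 2 in each female library, a total of 1311 against 4 and a ratio of 403 with a 95% interval from counting error of 157 to 1480. msl-2, which encodes the limiting protein of the complex, had 48.8, 41.1 and 36.2 CPM in males and 21.2, 18.3 and 18.4 CPM in females, a log2 fold change of 1.11 ± 0.10 (edgeR adjusted p = 0.000765). Every male library was well above every female library.

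No difference passed the test for transcripts of the other proteins of the complex and its partners. These 6 of the 9 listed dosage compensation genes, mof, mle, msl-1, msl-3, Clamp and JIL-1, were each tested. mof, the histone acetyltransferase, had 7.20, 10.1 and 9.17 CPM in males and 7.18, 4.94 and 6.44 CPM in females (log2 0.46 ± 0.20, adjusted p = 0.268 by edgeR). Clamp, a zinc finger protein that marks entry sites on the X, had 74.6, 75.6 and 65.7 CPM in males and 63.8, 64.2 and 64.6 CPM in females, and its difference of 0.16 ± 0.09 on the log2 scale did not pass either (adjusted p = 0.395 by edgeR). The male libraries were above the female ones for mof, by a narrow margin, and for Clamp. The helicase gene mle differed by 0.06 ± 0.08, msl-1 by 0.12 ± 0.09, msl-3 by 0.10 ± 0.13 and the kinase gene JIL-1 by 0.11 ± 0.10. All 9 differences were above 0, with a median of 0.16, and 3 of the 9 passed (33.3%) against 2.34% of all genes. Male libraries were all above female ones for 6 of the 9, roX1, roX2, msl-2, mof, Clamp and msl-1, against 7.10% of all tested genes. The same 3 passed without SD2 and with the run term.

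**Figure D2:**
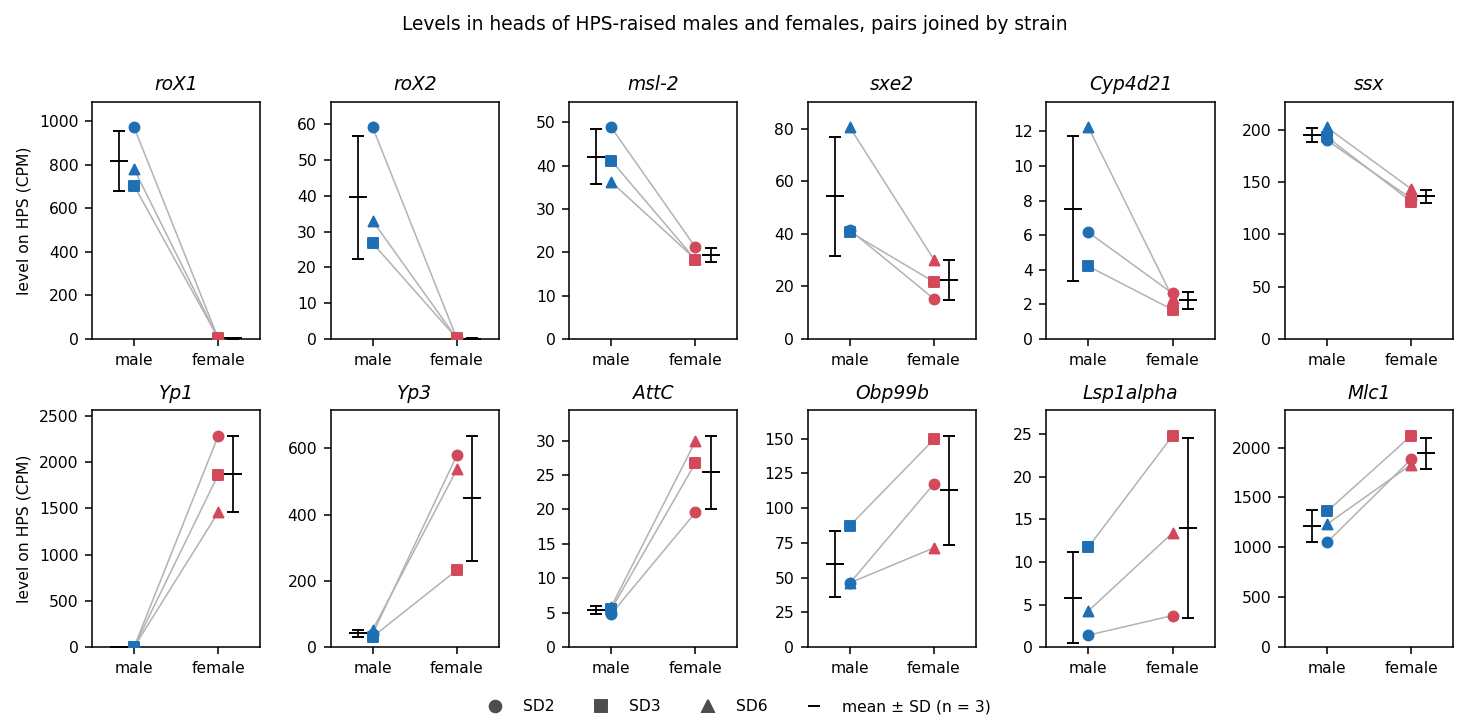
Levels of 12 genes in HPS heads (vertical axes, CPM, from 0), males on the left and females on the right of each panel; symbols are strains, grey lines join the male and female pools of 1 strain, and black bars are mean ± SD (n = 3 libraries). roX1, roX2 and the yolk protein gene Yp1 are near 0 in 1 sex, while the strains are spread widely in Obp99b, Lsp1alpha and sxe2.

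Yolk protein transcripts were the strongest female excess in the head. Yp1 had 4.07, 2.88 and 2.49 CPM in males, against 2283, 1864 and 1457 CPM in females of SD2, SD3 and SD6, a log2 fold change of -9.21 ± 0.15 (edgeR adjusted p = 2.41e-09). Yp2 had 17.6, 13.8 and 3.70 CPM in males and 2252, 2079 and 1112 CPM in females (log2 -7.42 ± 0.23), and Yp3 had 40.8, 31.4 and 52.7 CPM in males and 578, 232 and 536 CPM in females (log2 -3.37 ± 0.16). Yolk proteins are made by the female fat body and by ovarian follicle cells and are taken up by oocytes. The 3 genes were lower in males of every strain, and Yp3 was still read in every male library while Yp1 stayed at or below 4.07 CPM there. Among females, SD6 had the least Yp1 and Yp2 and SD3 the least Yp3. The roX and Yp levels match the sex label of each of the 6 libraries. In bulk RNA of whole heads, fewer cells of a type and less RNA per cell cannot be told apart.

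Besides the yolk protein genes, the list of sex-biased head fat body genes held sxe2 and Cyp4d21, which were higher in males. Obp99b was higher in females, and takeout was not called. sxe2, a lipase-like gene, had 41.5, 40.8 and 80.6 CPM in males and 15.2, 21.7 and 30.2 CPM in females (log2 1.28 ± 0.12, edgeR adjusted p = 0.00101). Its partner Cyp4d21, also called sxe1, encodes a cytochrome P450 and had 6.16, 4.20 and 12.2 CPM in males and 2.63, 1.69 and 2.39 CPM in females (log2 1.72 ± 0.26, edgeR adjusted p = 0.0135). For both genes every male library was above every female library, and SD6 males were highest. Obp99b, an odorant-binding protein gene with sex-biased fat body expression, had 46.1, 87.4 and 46.3 CPM in males and 118, 149 and 71.5 CPM in females (log2 -0.92 ± 0.13, edgeR adjusted p = 0.00912). Its sexes overlapped, since SD3 males were above SD6 females, but within each strain females were higher. takeout, written to in the annotation, had 6.63, 3.24 and 5.83 CPM in males and 8.13, 5.97 and 5.05 CPM in females, and its log2 difference of -0.25 ± 0.22 did not pass. A further member, fit, had 0.190, 0 and 0.142 CPM in males and 0.478, 0.130 and 1.13 CPM in females, mostly near the floor, and was not tested. Of the 7 tested members of this list, 2 were higher in males (28.6%) and 4 in females (57.1%). Among all tested genes the shares were 0.410% and 1.92%. The same count held without SD2, without SD3 and without SD6, in fits that reuse the same libraries. The list was drawn up from genes known for sex bias, so its count is not independent evidence of direction.

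No gene of the sex determination pathway passed the test on HPS. The closest was tra, spliced to a functional form only in females, with 13.6, 8.40 and 12.5 CPM in males and 17.6, 16.9 and 19.7 CPM in females. Its log2 difference was -0.65 ± 0.14 with an edgeR adjusted p of 0.0531, and its male and female libraries did not overlap. Sxl had 180.0, 161 and 165 CPM in males and 214, 220.1 and 189 CPM in females, again without overlap, and its log2 difference of -0.30 ± 0.09 had an edgeR adjusted p of 0.118. dsx differed by -0.47 ± 0.16 and fru by -0.32 ± 0.09, with adjusted p of 0.171 and 0.105 by edgeR and overlapping libraries. Of these, 3 crossed the threshold in other fits, always higher in females: with the run term tra, Sxl and dsx had edgeR adjusted p of 0.0322, 0.0398 and 0.0440, and without SD3 tra had 0.0164. Gene counts add up all splice forms, so the sex-specific forms of these genes were not seen apart. The remaining 10 of the 14 tested genes (tra2, ix, her, vir, fl(2)d, snf, Ythdc1, Mettl3, Mettl14 and dsf) lay between -0.08 and 0.39 on the log2 scale. ssx, the sister gene of Sxl, was not on the list and passed, with 189.8, 193 and 202 CPM in males and 134, 131 and 143 CPM in females (log2 0.51 ± 0.08, edgeR adjusted p = 0.0140; 0.123 without SD2).

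Next to these known sex genes stood transcripts that 1 sex nearly lacked. asRNA:CR45601, a noncoding RNA on the strand opposite Yp1, had 0 to 2 reads in each male library and 24 to 194 in each female library. The totals of 2 and 288 reads give a level 117-fold higher in females per gene read, with a 95% counting interval of 32.1 to 972. Its reads came to 0.508%, 0.167% and 0.319% of those of Yp1 in SD2, SD3 and SD6 females, and whether they include copies of Yp1 reads placed on the opposite strand was not tested. brv3, which encodes a channel of the TRP family, had 5.40, 2.16 and 3.27 CPM in males and 0.179, 0 and 0 CPM in females, from 121 reads in all males and 3 in all females. Their ratio was 49.6 with a counting interval of 16.6 to 244, and the log2 fold change of 5.55 ± 0.52 (edgeR adjusted p = 0.00101) rests on those few female reads.

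Several noncoding and number-only genes also differed. asRNA:CR45479, which overlaps Cyp4d14 on the opposite strand, had 10.3, 17.9 and 14.5 CPM in males and 1.67, 1.30 and 2.06 CPM in females (log2 2.96 ± 0.22, edgeR adjusted p = 0.000197). lncRNA:CR32553 had 3.98, 10.9 and 18 CPM in males and 1.02, 2.34 and 3.65 CPM in females (log2 2.20 ± 0.18). Both are on the X, and for both all males were above all females. CG7860, also on the X, had 62.1, 13.1 and 75.4 CPM in males and 10.7, 4.03 and 20.1 CPM in females, a log2 fold change of 2.12 ± 0.15 (edgeR adjusted p = 0.000196). Its strains differed so much that SD3 males were below SD6 females, while males led within each strain. CG1368, a number-only gene on the X, was lower in males, with 0.379, 0.480 and 0.355 CPM in males and 5.02, 8.96 and 6.84 CPM in females (log2 -4.07 ± 0.29, edgeR adjusted p = 0.000184), from 4 or 5 reads in each male library. Of the 222 called genes 96 carry only a CG or CR number or an identifier (43.2%), against 36.8% of all tested genes. Among 227 tested noncoding RNA genes 8 were called (3.52%, against 2.34% of all tested genes), 5 higher in males and 3 in females. In all these cases the counted reads were those that mapped to 1 place and to the annotated strand.

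Other named genes higher in males differed more modestly. Gcna, a gene related to a germ cell nuclear protein, had 5.59, 3.96 and 4.76 CPM in males and 1.97, 0.390 and 1.33 CPM in females (log2 1.88 ± 0.30, edgeR adjusted p = 0.0147). t, known as tan, encodes the hydrolase that frees dopamine and histamine from their beta-alanyl conjugates, and it had 529, 464 and 568 CPM in males and 393, 296 and 366 CPM in females (log2 0.57 ± 0.09, edgeR adjusted p = 0.0165). It was the only called member of 12 tested cuticle tanning genes (8.33%, against 2.34% of all tested genes). The same enzyme serves histamine recycling in the eye. w, the white pigment transporter, had 82.0, 135 and 79.0 CPM in males and 63.6, 61.3 and 57.0 CPM in females (log2 0.65 ± 0.14). Of 18 eye pigment genes w was the only one called (5.56%, against 2.34% of all tested genes). SD3 males stood out with the highest w. Osi9 differed by 0.94 ± 0.16 and dsb, a gene of the CD36 scavenger receptor family, by 0.60 ± 0.11. Without SD2 the adjusted p was 0.0653 for t, 0.0558 for w, 0.162 for Osi9 and 0.283 for dsb by edgeR.

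Cytochrome P450 genes gave 3 calls among 72 tested (4.17%, against 2.34% of all tested genes), while the median of the 72 was -0.10. All 3 were higher in males, as were 0.410% of all tested genes. Besides Cyp4d21 these were Cyp4ae1, with 8.81, 10.6 and 9.17 CPM in males and 5.80, 4.55 and 4.32 CPM in females (log2 0.94 ± 0.18), and Cyp4ac1, with 13.6, 5.76 and 18.3 CPM in males and 5.98, 5.07 and 9.23 CPM in females (log2 0.89 ± 0.19). All 3 belong to the Cyp4 family, and 47 of the 72 P450 genes had a difference below 0. Without SD2 only Cyp4d21 passed, with an edgeR adjusted p of 0.0141. Glutathione transferases and UDP-glycosyltransferases, which also act in detoxification, had 2 calls among 46 (4.35%, against 2.34% of all tested genes). These were GstE3 (log2 -0.46 ± 0.09) and GstE9 (log2 -0.43 ± 0.08), both higher in females, and neither passed without SD2.

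Among genes higher in females, rost had the smallest p after the yolk protein genes and AttC. This gene, also called rolling stone, encodes a membrane protein known from myoblast fusion, and had 11.8, 8.76 and 19.4 CPM in males and 41.4, 43.4 and 61.0 CPM in females (log2 -1.88 ± 0.13, edgeR adjusted p = 0.000184). tw, or twisted, encodes a protein O-mannosyltransferase and had 13.7, 12.2 and 13.8 CPM in males and 28.1, 28.7 and 27.3 CPM in females (log2 -1.08 ± 0.11, edgeR adjusted p = 0.00175). The 3 strains were nearly alike in tw within each sex. Fdh, the formaldehyde dehydrogenase, had 85.7, 109.5 and 91.5 CPM in males and 150.0, 172 and 174 CPM in females (log2 -0.80 ± 0.09). frma differed by -0.99 ± 0.10 and ssp7 by -0.93 ± 0.09. Each of these 5 genes passed without SD2, with edgeR adjusted p of 0.00021 for rost and 0.0161 for Fdh at the extremes.

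Antimicrobial and other immune-induced genes were higher in females where they differed. Of 31 tested members, 9 were higher in females and none in males (29.0% called, against 1.92% of all genes higher in females), and 29 of the 31 differences were below 0, with a median of -0.63. AttC, an attacin directed at Gram-negative bacteria, had 4.83, 5.52 and 5.90 CPM in males and 19.6, 26.8 and 29.9 CPM in females (log2 -2.22 ± 0.13, edgeR adjusted p = 6.05e-05). The 3 male libraries were alike and far from the female ones. DptB, a diptericin, had 0.379, 1.92 and 4.26 CPM in males and 4.48, 17.0 and 22.6 CPM in females (log2 -2.75 ± 0.22, edgeR adjusted p = 0.000339), which in SD2 males is close to the floor. Its neighbour DptA was also low, with 0.284, 1.08 and 1.28 CPM in males and 0.897, 3.64 and 6.51 CPM in females (log2 -2.07 ± 0.30). AttB had 2.46, 5.52 and 10.7 CPM in males and 7.65, 17.0 and 31.5 CPM in females (log2 -1.60 ± 0.13), and AttA had 2.08, 10.3 and 32.4 CPM in males and 20.6, 31.0 and 92.2 CPM in females (log2 -1.87 ± 0.24). AttA and AttB lie side by side and are close copies, and only reads that map to 1 place were counted, so how their reads were split is uncertain. For AttA and AttB SD6 was high and SD2 low in both sexes, so the sexes overlapped while females led within each strain.

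The other called immune genes act at different steps. Vago, a secreted factor known from antiviral responses, had 8.91, 7.80 and 12.6 CPM in males and 18.7, 18.4 and 27.4 CPM in females (log2 -1.14 ± 0.12, edgeR adjusted p = 0.00177). Mtk, the antifungal metchnikowin, had 6.16, 6.00 and 10.2 CPM in males and 13.5, 21.9 and 15.9 CPM in females (log2 -1.15 ± 0.21). The recognition protein genes PGRP-SA, upstream of the Toll pathway, and PGRP-SB1 differed by -0.80 ± 0.15 and -0.67 ± 0.12. Drs, the drosomycin gene usually read as a Toll target, did not pass, with 22.4, 112 and 77.4 CPM in males and 27.4, 229.6 and 64.6 CPM in females (log2 -0.37 ± 0.20), and overlapped widely. Summed over the list, levels were 1818, 1618 and 3334 CPM in SD2, SD3 and SD6 males, against 2860, 3125 and 3744 CPM in females, so the summed difference was smallest in SD6. Between the earlier and the later run the same male LPS SD2 RNA differed by -0.55 for DptB, -0.41 for AttA and 0.09 for AttC on the log2 scale (later minus earlier). Members called numbered 6 without SD2, 16 without SD3, 16 without SD6 and 7 with the run term, each time higher in females.

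Transcripts of muscle structural proteins were lower in males where they differed, with 1 exception. Of 25 tested members, 1 was higher in males and 8 were higher in females, which is 4% of the list higher in males and 32% higher in females, against 0.410% and 1.92% of all tested genes. Of the 25 differences 22 were below 0, and the median was -0.51. Mlc1, a myosin light chain, had 1050.0, 1360.3 and 1232 CPM in males and 1882, 2118 and 1829 CPM in females (log2 -0.69 ± 0.11, edgeR adjusted p = 0.0145). The troponin T gene up had 1371, 1648 and 1342 CPM in males and 2343, 2419 and 2006 CPM in females (log2 -0.64 ± 0.11), and bt, which encodes the giant elastic protein projectin, had 274, 336 and 314 CPM in males and 543, 648 and 426 CPM in females (log2 -0.80 ± 0.12). In each of these 3 genes the lowest female library was above the highest male one. The troponin C genes TpnC25D and TpnC41C differed by -0.75 ± 0.12 and -0.74 ± 0.10, the tropomyosin genes Tm1 and Tm2 by -0.60 ± 0.11 and -0.52 ± 0.11, and the troponin I gene wupA by -0.45 ± 0.10. Mhc, the myosin heavy chain, had 3845, 5173 and 4617 CPM in males and 6809, 6667 and 7033 CPM in females without overlap, and its difference of -0.60 ± 0.14 missed the threshold (edgeR adjusted p = 0.0575). The exception among called members was Act88F, the actin of flight muscle, at 2.94, 12.2 and 5.90 CPM in males and 2.09, 5.58 and 2.39 CPM in females (log2 1.01 ± 0.22). Without SD2 its edgeR adjusted p was 0.0653.

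Summed over the muscle list, levels were 27613, 38883 and 31088 CPM in SD2, SD3 and SD6 males, against 46865, 46397 and 44358 CPM in females. Females of the 3 strains were alike in this sum and males spread more widely, with SD2 lowest. Within a single strain the median of the muscle list was -0.72 in SD2, -0.25 in SD3 and -0.48 in SD6. No muscle gene passed without SD2, while 21 were higher in females without SD3, 4 without SD6 and 12 with the run term. Without SD2 the median of the list was -0.39.

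Blood cell and basement membrane genes gave 3 calls among 13 tested (23.1%), all higher in females, against 1.92% of all tested genes. Hml, the haemocyte marker hemolectin, had 15.3, 12.8 and 12.4 CPM in males and 26.6, 20.8 and 27.3 CPM in females (log2 -0.90 ± 0.12, edgeR adjusted p = 0.00772). Ppn, the matrix protein papilin, had 43.5, 62.4 and 43.5 CPM in males and 76.8, 76.9 and 93.4 CPM in females (log2 -0.75 ± 0.14), and LanA, a laminin chain, differed by -0.55 ± 0.08. For Hml and Ppn the sexes did not overlap. The collagen IV genes Col4a1 and vkg differed by -0.41 ± 0.10 and -0.27 ± 0.10 without passing, and 2 of 13, crq and Pxn, had differences above 0. Without SD2 only Hml passed, with an edgeR adjusted p of 0.0417.

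Larval storage proteins, which the larval fat body makes and the fly still carries over from metamorphosis, were higher in females for 3 of 6 tested genes (50%, against 1.92% of all tested genes). Lsp1alpha, an X-linked gene known from larvae to escape dosage compensation, had 1.42, 11.8 and 4.26 CPM in males and 3.71, 24.8 and 13.4 CPM in females (log2 -1.36 ± 0.17, edgeR adjusted p = 0.00510). Fbp2 had 14.3, 47.3 and 27.9 CPM in males and 25.8, 125 and 46.0 CPM in females (log2 -1.01 ± 0.14), and Lsp1beta had 24.0, 55.7 and 179.8 CPM in males and 34.0, 89.5 and 216 CPM in females (log2 -0.47 ± 0.10). These genes varied far more between strains than between sexes, and the sexes overlapped for all 3. Lsp2, the storage protein that larvae and adults share, had 114, 152 and 41.9 CPM in males and 69.9, 195 and 36.0 CPM in females and was not called. Lsp1alpha and Fbp2 passed without SD2, and Lsp1beta did not (edgeR adjusted p = 0.261). With the run term Lsp1alpha and Lsp1beta passed (edgeR adjusted p = 0.00648 and 0.0452), and Fbp2 did not (edgeR adjusted p = 0.0935). Of 15 genes for adult fat body and lipoproteins none was called, with a median of -0.13; their summed level was 3367, 3235 and 3520 CPM in SD2, SD3 and SD6 males and 3760, 3534 and 4246 CPM in females.

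Cuticle proteins gave 7 calls among 49 tested (14.3%), all higher in females, against 1.92% of all tested genes. Differences were below 0 for 37 of the 49, and for 4839 of all 9507 tested genes. resilin, the rubber-like protein of elastic cuticle, had 95.5, 53.3 and 10.3 CPM in males and 389, 102 and 38.5 CPM in females (log2 -1.63 ± 0.19, edgeR adjusted p = 0.00294). In both sexes SD2 was highest and SD6 lowest, and females were higher within each strain. Cpr64Aa had 93.7, 118 and 71.1 CPM in males and 178, 160.3 and 172 CPM in females (log2 -0.89 ± 0.14), Cpr49Ae differed by -0.70 ± 0.11 and Cpr11A by -0.63 ± 0.10. The remaining 3 were Acp65Aa, Cpr56F and Cpr62Bc. Without SD2 only resilin and Cpr11A were higher in females, and Cpr72Ec was higher in males.

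Odorant-binding proteins and coreceptors gave 4 calls among 28 tested (14.3%), each higher in females, against 1.92% of all tested genes. Obp19d had 139, 123 and 251 CPM in males and 229, 213 and 395 CPM in females (log2 -0.72 ± 0.08, edgeR adjusted p = 0.00294), and Obp18a had 15.5, 19.3 and 20.7 CPM in males and 31.2, 36.5 and 34.1 CPM in females (log2 -0.88 ± 0.11). Obp56d differed by -0.69 ± 0.14, and the fourth is Obp99b, described above. Proteins of this class carry odorants in antennal lymph and several are made in other tissues. Obp19d, Obp18a and Obp99b passed without SD2, and Obp56d did not (edgeR adjusted p = 0.180).

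Proteasome genes gave 3 calls among 33 (9.09%), all higher in females and all on the X. Of all tested genes 1.92% were called higher in females, and of tested X genes 4.45%. Rpt6, an ATPase of the regulatory particle, had 469.7, 461 and 418 CPM in males and 699, 596 and 587 CPM in females (log2 -0.48 ± 0.09, edgeR adjusted p = 0.0307). Rpt3 differed by -0.45 ± 0.09 and the core subunit gene Prosalpha4 by -0.41 ± 0.08, while the median of the 33 was -0.06. The 3 did not pass without SD2. Oxidative phosphorylation gave 1 call among 64 (1.56%), the cytochrome oxidase gene COX7AL2 (log2 -0.90 ± 0.15), although 60 of the 64 differences were below 0, with a median of -0.19. Cytosolic ribosomal protein genes had 0 calls among 79 by edgeR, with 76 differences below 0 and a median of -0.16, and mitochondrial ribosomal protein genes 0 among 70, with a median of -0.13. In each of these 3 lists the median was below 0 within every strain, while on LPS it was 0.0068, -0.05 and -0.0045 in the order given.

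Signals and metabolism differed little. Ilp3, an insulin-like peptide of brain neurosecretory cells, had 35.4, 20.0 and 33.4 CPM in males and 48.7, 35.6 and 43.1 CPM in females (log2 -0.53 ± 0.11, edgeR adjusted p = 0.0449; 0.191 without SD2). It was the only call among 25 insulin, FOXO and TOR signalling genes and among 33 neuropeptide genes. That is 4% and 3.03% of these lists, near the 2.34% called among all tested genes. Its neighbours in function differed less clearly: Ilp5 by -0.55 ± 0.15 and Ilp2 by 0.04 ± 0.10, neither past the threshold. Single calls were also made for Ahcy (log2 -0.47 ± 0.09), which hydrolyses S-adenosylhomocysteine, among 17 amino acid and one-carbon genes; Acox57D-d (log2 -0.70 ± 0.11), an acyl-CoA oxidase, among 22 lipid genes; ninaD (log2 -0.43 ± 0.08), the receptor for carotenoid uptake, among 29 phototransduction genes; and Hsc70-1 (log2 -0.70 ± 0.11) among 19 heat shock genes. In the order given, these single calls are 5.88%, 4.55%, 3.45% and 5.26% of their lists, against 2.34% of all tested genes. All 4 were higher in females, and none passed without SD2.

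The neural lists gave no calls and leaned slightly towards males. Of 35 genes for synaptic release and transmitter synthesis, 29 differences were above 0, with a median of 0.16, and of 38 transmitter receptor genes 34 were above 0, with a median of 0.13. The largest of the release genes was Snap25, with 524, 318 and 321 CPM in males and 274, 294 and 276 CPM in females (log2 0.42 ± 0.15, edgeR adjusted p = 0.190). SD2 males stood above the other males for it, and the male LPS SD2 RNA gave a Snap25 level higher by 0.79 on the log2 scale in the later run than in the earlier one. None of the tested genes passed for the circadian clock (16), glia (13), glycolysis and stored sugars (23), ecdysone response (18), juvenile hormone (11), metallothioneins and oxidative defence (11), nucleolar ribosome biogenesis (13) or cell cycle and DNA replication (19). The nucleolar list had the lowest median of these, -0.33, with 12 of 13 differences below 0.

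**Figure D3:**
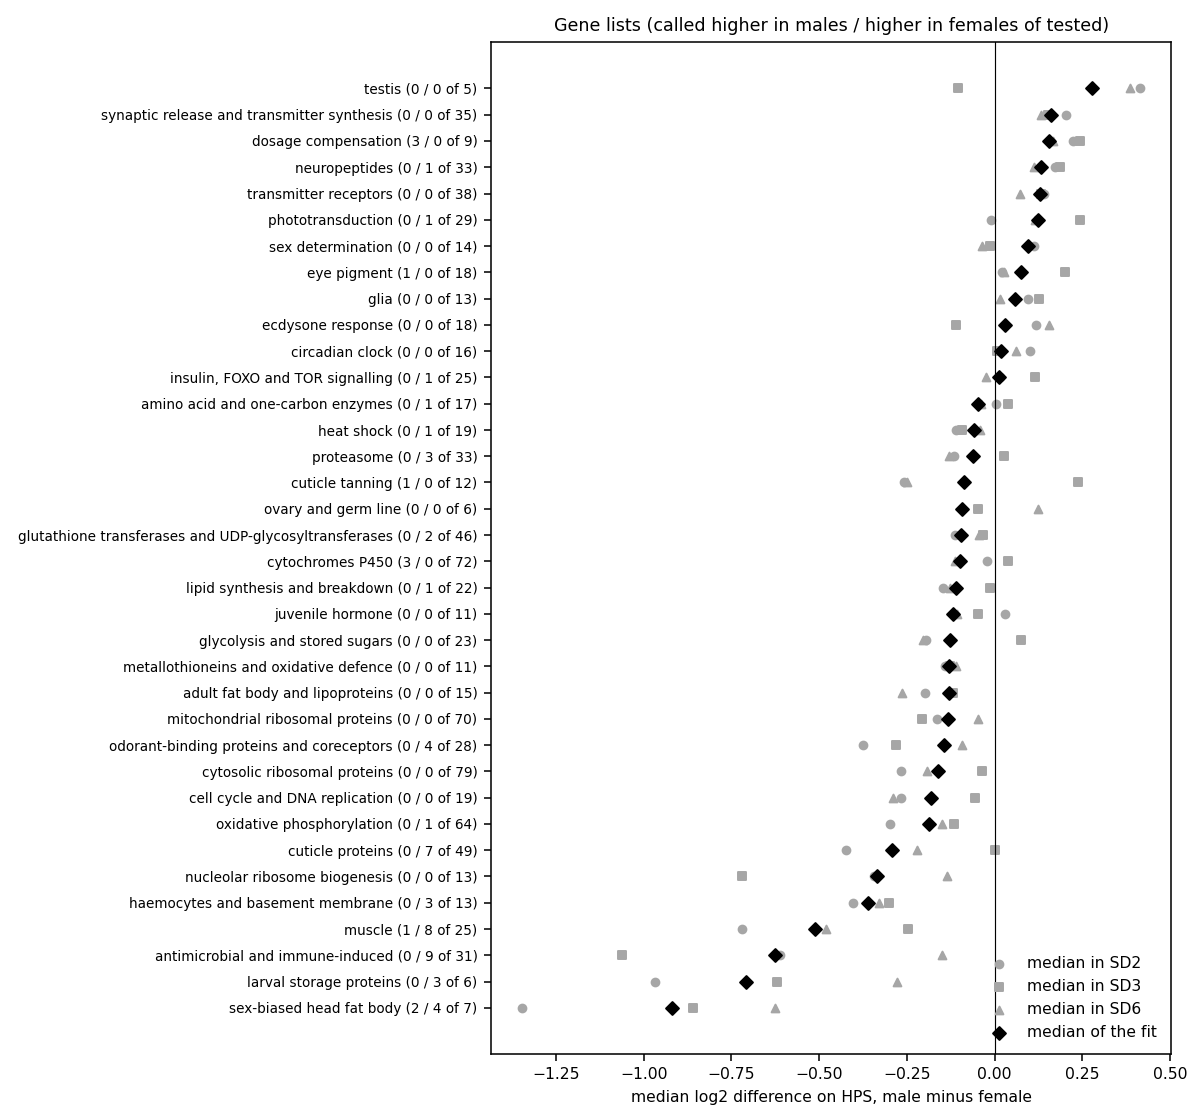
Median log2 difference on HPS, male minus female (horizontal axis), for each gene list with at least 5 tested members (rows), with the number called higher in males, called higher in females and tested; black diamonds are medians of the fit and grey symbols medians within SD2, SD3 and SD6. The medians of the antimicrobial, muscle, larval storage and sex-biased fat body lists lie furthest to the left and are below 0 within every strain, though single members such as sxe2 were higher in males.

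Lists for tissues outside the head gave no calls. Of 12 Y-linked genes 11 had no read in any HPS library and the other had 1 read in 1 library, and 13 accessory gland genes reached at most 8 reads in a library. Neither list had a tested member. Of 26 testis genes 5 were tested and none passed; among them bol, an RNA-binding protein gene of meiosis, had 128, 88.3 and 117 CPM in males and 106, 109.7 and 89.6 CPM in females. The testis list summed to 146, 104 and 141 CPM in SD2, SD3 and SD6 males and 118, 125 and 108 CPM in females, most of it bol. Of 22 ovary and germ line genes 6 were tested and none passed, with summed list levels of 38.9, 34.3 and 40.6 CPM in SD2, SD3 and SD6 males and 39.5, 35.5 and 38.5 CPM in females. Gut enzymes summed to 2.75, 3.96 and 6.54 CPM in males and 2.45, 5.84 and 2.86 CPM in females.

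The X held 16.3% of the tested genes and 41.9% of the called ones, which is a description over genes, and genes are not replicates. On the X 93 of 1550 tested genes were called (6.00%), 24 higher in males and 69 higher in females, against 124 of 7730 on the large autosome arms (1.60%), 15 higher in males and 109 in females. Of the genes higher in males 61.5% were on the X, and of those higher in females 37.7%. The median over all tested X genes was 0.0019, against -0.0049 on chromosomes 2 and 3, and the middle 50% of X genes ran from -0.17 to 0.16. At low, middle and high expression 4.85%, 5.50% and 7.53% of X genes were called, against 1.13%, 2.02% and 1.68% on chromosomes 2 and 3. Among the large autosome arms 2R had the highest share of calls, 2.00%, with 1 gene higher in males and 37 higher in females. Of these X genes, 10 were higher in males and 20 higher in females without SD2, and 44 were higher in males and 90 in females with the run term.

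**Figure D4:**
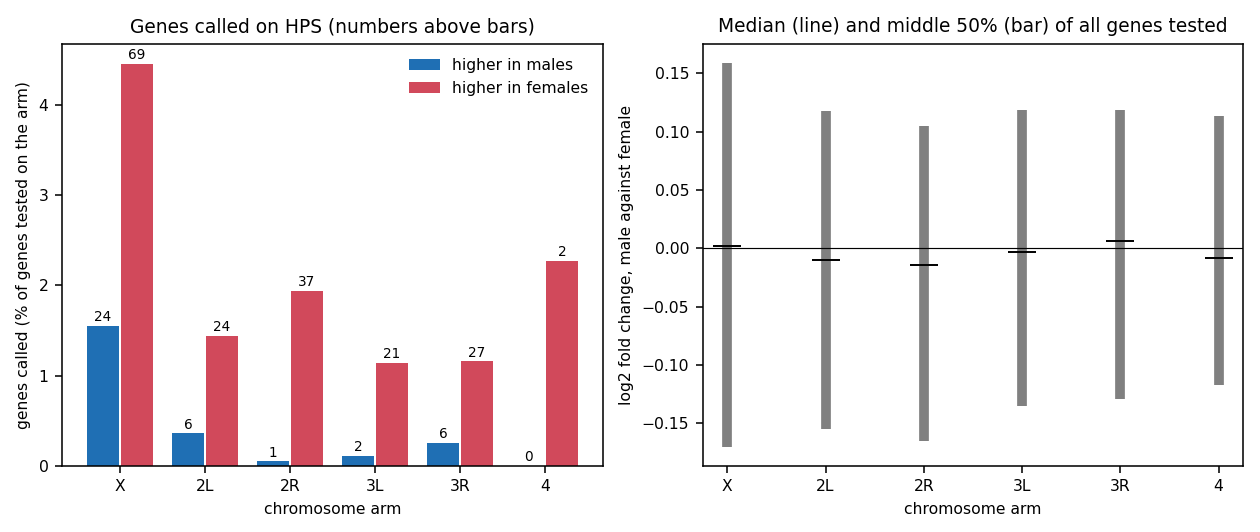
Left, share of tested genes on each chromosome arm called on HPS (percent, from 0), blue for higher in males and red for higher in females, with numbers of genes above the bars; right, median and middle 50% of the log2 fold change of males against females over all genes tested on the arm. The X has the tallest bars in both directions, while its median lies near 0 like those of the other arms.

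Along the arms, 219 called genes could be placed, and the order was taken over tested genes only, so untested genes between them were skipped. In that order, called genes that followed each other formed 14 groups with 30 genes, each group changed in 1 direction. How many groups would arise from any called genes of this number was not tested. The longest held 4 genes around the yolk protein cluster of the X: asRNA:CR45185, Yp2, Yp1 and asRNA:CR45601. asRNA:CR45185 had 5.12, 5.28 and 3.20 CPM in males and 7.41, 14.7 and 6.44 CPM in females (log2 -1.0 ± 0.21). AttA with AttB, DptA with DptB and Tm1 with Tm2 are pairs of related genes. roX2 was paired with nod, a kinesin-like gene of meiotic chromosome segregation, which had 5.21, 4.08 and 4.26 CPM in males and 2.63, 2.34 and 1.66 CPM in females (log2 1.06 ± 0.23, edgeR adjusted p = 0.0488; 0.276 without SD2).

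The same genes were looked at in flies raised on LPS, which share no sample with the HPS comparison. On LPS all 39 genes higher in males on HPS had a higher mean in males, and 178 of the 183 genes higher in females on HPS had a higher mean in females. Male and female LPS libraries did not overlap, in the same direction, for 26 of the 39 (66.7%) and 61 of the 183 (33.3%), against 4.45% and 5.44% of all tested genes. None was separated in the opposite direction. Differences were smaller there than on HPS, where the genes had been chosen: the median was 0.65 on LPS and 0.95 on HPS for genes higher in males, and -0.47 on LPS and -0.67 on HPS for genes higher in females, on 1 log2 scale. Because the genes were chosen on HPS, these medians are no test of diet. The libraries labelled male LPS SD3 and male LPS SD6 correlated at -0.35 to -0.21 with samples of their own strain number and at 0.63 to 0.75 with those numbered like the other library, in deviations from group means over genes. Means over the 3 LPS males do not depend on which of these libraries carries which strain.

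Several genes show how the LPS samples compare. roX1 averaged 792 ± 151 CPM in LPS males and 0.867 ± 0.371 CPM in LPS females, and Yp1 averaged 4.71 ± 1.94 CPM in LPS males and 2344 ± 871 CPM in LPS females (SD, n = 3 each). msl-2 averaged 37.5 ± 3.60 CPM in LPS males and 20.8 ± 0.477 CPM in LPS females. AttC was less separated on LPS, with 13.4 ± 10.6 CPM in males and 19.3 ± 1.71 CPM in females and overlapping libraries. Over the antimicrobial list the median difference was -0.23 on LPS against -0.63 on HPS, and over the muscle list -0.17 against -0.51. Mlc1, to take a muscle gene, averaged 1368 ± 225 CPM in LPS males and 1584 ± 150.0 CPM in LPS females.

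**Figure D5:**
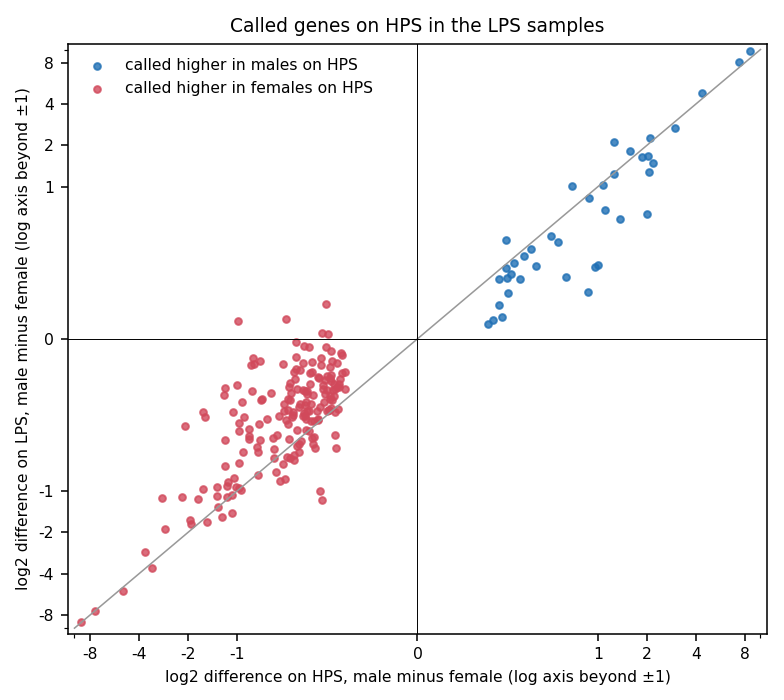
Log2 difference, male minus female, on LPS (vertical axis) against that on HPS (horizontal axis) for the 222 genes called on HPS, blue for those higher in males and red for those higher in females on HPS; axes are linear to 1 either side of 0 and logarithmic beyond, and the grey line marks equal values. All 39 blue points and 178 of 183 red points have the same sign on both diets.

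Whether the sex difference itself depended on diet was tested as an interaction over the 12 RNA samples. Of 10026 genes tested, none passed (0% by edgeR, and 0 by DESeq2), and 180 had an unadjusted p below 0.05 by edgeR, 144 by DESeq2. Without the libraries labelled male LPS SD3 and male LPS SD6 the count stayed at 0, with 488 genes at an unadjusted p below 0.05. Of the 222 genes called on HPS, 19 had an unadjusted p below 0.05. The smallest p among genes with a more negative difference on HPS were those of TotA, Sf3b5 and CG30050. TotA, a stress-induced Turandot gene, had 12.7, 35.1 and 51.9 CPM in HPS males and 26.3, 58.2 and 60.6 CPM in HPS females, and averaged 62.8 ± 32.4 CPM in LPS males and 40.2 ± 28.4 CPM in LPS females. Its interaction was -1.41 ± 0.30 on the log2 scale with an unadjusted p of 0.000983 and an edgeR adjusted p of 1. At the other end were Ccp84Ad, a cuticle protein gene (1.07 ± 0.25), CG8915 (0.53 ± 0.16) and Elp2 (0.46 ± 0.14), which did not pass either. A p that misses the threshold does not show that diet left the sex difference as it was.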

How the data were processed

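Poly(A) RNA was prepared from 100 ng of total RNA per sample with a stranded kit and read as single-end 75 bp reads, per the labels' protocols. The deposited values are whole-number counts of reads per gene, not normalized; HTSeq 0.6.1p1 and TopHat2 2.1.0 are listed in the submitters' processing notes, with CASAVA 1.8.2 and bcl2fastq 1.8 besides, and the deposited names mark uniquely mapped reads on the reverse strand. The genome build behind the counts is not given in the sources used here. Symbols and arms came from the reference annotation through FlyBase identifiers and matched 17155 of 17370 genes. Entries that name no gene and spike-ins stayed out of library sizes. Reads outside genes made up 2.93% to 10.4% of the HPS libraries.

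The 6 HPS libraries were fitted with edgeR 4.0.16 in R 4.3.3 (TMM, filterByExpr at a minimum count of 10, quasi-likelihood F-test, strain as a block, 2 residual degrees of freedom). Genes with an adjusted p below 0.05 over all 9507 tested are called. Levels use TMM factors over the 12 RNA samples, with both male LPS SD2 libraries summed; log2 values within a strain use a prior count of 2. The strain numbers pair the samples because a number is a line and both sexes came from the same vials; deviations from group means of same-numbered males and females correlated at 0.763, 0.583 and 0.713 for SD2, SD3 and SD6, and those of other pairs at -0.481 to -0.180. No libraries within a sex agreed within sampling noise (chi-square per degree of freedom 22.3 to 43.7). On simulated counts for this comparison (9507 genes, 50 changed at each fold), the fit recovered 36, 43, 50 and 49 of 50 at 1.5, 2, 4 and 8-fold, with 3 false calls among 181. The simulated fold was the same in every strain and no run difference was put in. Its share of false calls therefore need not hold for the real libraries.

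Alternatives were DESeq2 1.42.0, limma 3.58.1 (voom), other scalings and filters, leaving out each strain, and fits with LPS samples. The comparison and the gene lists were chosen with earlier results of these data known; lists were written from known functions and 10 listed names matched no gene. Genes named are all members of the dosage compensation, sex determination and head fat body lists, the 12 smallest p with a symbol and the 5 largest folds per direction, up to 4 called genes per other list, the 3 smallest p per direction of the sex by diet test, and genes near 0 in 1 sex. Any other gene named was chosen after its values were seen: nod beside roX2, CG1368, Act88F, further called list members, members that did not pass, and the genes of the closing observations.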

Additional observations from a re-analysis of the deposited data

How the results depend on the processing

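The count of genes called on HPS rested most on the strain block, the strain pairs and the samples in the fit. Against 222 genes (39 higher in males, 183 in females), the fit with no replicate block gave 10 (3 and 7), no filter on low counts 618 (129 and 489), all 12 samples as labelled 32 (12 and 20), 10 samples without the libraries labelled male LPS SD3 and male LPS SD6 454 (127 and 327), and 12 samples with those strain labels exchanged, chosen after seeing the data, 398 (114 and 284). With sequencing run as a term it was 310 (89 and 221), and DESeq2 gave 248. Leaving out 1 strain gave 59 to 909 genes, 15 to 284 higher in males and 44 to 625 higher in females; the 4 libraries left have 1 residual degree of freedom. All 32 genes found with 12 samples as labelled, 207 of the 454 with 10 samples and 187 of the 248 by DESeq2 were among the 222. With library totals in place of TMM the median moved to 0.041 on the X and 0.034 on chromosomes 2 and 3; without 1 strain it lay between -0.0013 and 0.012 on the X and between -0.0053 and -0.0034 on chromosomes 2 and 3. All alternatives reuse HPS libraries behind the calls, so kept directions are not independent of them. None of the 59 called genes chosen by the naming rule turned its direction in the 14 alternatives. The minimum count of 50 could be run for 54 of these genes. Called genes named outside the rule were not followed through all of the alternatives. Genes that had not passed did so, near 0: vir (-0.013), Mettl3 (-0.015) and tra2 (0.0088) without SD3, and Elp2 (-0.0039 without SD2, -0.038 without SD6). Leaving out 1 strain gave -0.013 to 0.24 for vir, -0.015 to 0.41 for Mettl3, -0.13 to 0.0088 for tra2 and -0.038 to 0.12 for Elp2. Of these 59, 31 still passed without SD2, 48 without SD6, 59 without SD3, 15 with 12 samples as labelled, 8 with no replicate block and 52 with the run term. The sex by diet count stayed at 0 in every alternative, with 37 to 767 genes at an unadjusted p below 0.05 and a lowest adjusted p of 0.0814 (DESeq2). The causes were not tested. With 3 pairs the precision is limited, and levels near the floor of 3 reads (0.178 to 0.382 counts per M reads) are set by counting error.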

Other observations

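Several called genes of metabolism and transport fell outside the lists and were named after their values were seen. Tsf1, the iron-binding transferrin of the blood, had 528, 593 and 1302 CPM in SD2, SD3 and SD6 males and 792, 1112 and 2057 CPM in females (log2 -0.72 ± 0.11, edgeR adjusted p = 0.0115). Ass, the argininosuccinate synthase gene, had 1.33, 1.32 and 2.42 CPM in males and 3.53, 5.45 and 6.31 CPM in females (log2 -1.55 ± 0.24), and the sexes did not overlap. Mct1, a monocarboxylate transporter gene on the X, had 248, 237 and 245 CPM in males and 352, 318 and 418 CPM in females (log2 -0.57 ± 0.10), with all females above all males. Gfat2, which makes hexosamine for chitin and glycans, was among the genes higher in males, at 78.3, 72.2 and 72.4 CPM in males and 55.6, 45.2 and 58.8 CPM in females (log2 0.48 ± 0.10). dyw, or daywake, had 728, 1206 and 699.9 CPM in males and 1556, 1600.2 and 1471 CPM in females (log2 -0.86 ± 0.14, edgeR adjusted p = 0.0193), and SD3 males were well above the other males. Without SD2 these genes had edgeR adjusted p of 0.0558 for Tsf1, 0.0551 for Ass, 0.0964 for Mct1, 0.241 for Gfat2 and 0.130 for dyw.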
